A study of Mus musculus with 4 samples.

Results

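The cells described here are type 2 conventional dendritic cells (cDC2) from the ascites of tumour-bearing mice, 239 of the 6419 ascites cells that were assigned to a mouse and of the 13160 assigned cells of the whole series. They were chosen by their transcripts. A member had at least 2 UMIs (unique molecular identifiers, counted transcripts) of Cd209a, under 3 of Xcr1 and Clec9a together, under 3 of Fscn1, under 30 of C1qa, C1qb and C1qc together per 10000 UMIs, and at most 1 of Cd79a and Cd3e together. These 9 genes chose the cells, and their levels are therefore no finding. The treatment was not used to choose the cells.

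Conventional dendritic cells take up antigen and present it to T cells. The cDC2 lineage presents mainly on MHC class II to CD4 T cells, depends on the growth factor receptor Flt3, and carries C-type lectins such as Cd209a, Clec10a and Mgl2, while its sister lineage, cDC1, carries Xcr1 and Clec9a and cross-presents to CD8 T cells. Salt-inducible kinases (SIKs) phosphorylate CRTC proteins and so hold these CREB partners in the cytoplasm, away from their target genes. Protein kinase A, the kinase activated by cyclic AMP, inhibits the SIKs.

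The study treated B6 mice carrying BeCon tumours, which the series title places in ovarian cancer, with YKL-05-099, a small-molecule SIK inhibitor, or with vehicle. Ascites, spleen and blood were sorted for live leukocytes (CD45+ MHCI+), and each mouse was marked by a hashtag antibody. The ascites cells of 4 vehicle mice and 4 treated mice were pooled in a single droplet library (10x Genomics 3′ chemistry), so that all 8 mice shared its free RNA. Dose, duration, age, the tumour line's genotype and whether the mice were handled in batches are not given in the sources used here, and p-values measure the spread between these mice. The ascites library held 134034611 gene UMIs over 13688 barcodes, and 10 assigned barcodes also occurred among assigned cells of the spleen and blood library. The cDC2 numbered 39, 30, 50 and 27 in vehicle mice 1 to 4 and 32, 28, 19 and 14 in treated mice 1 to 4, with 206687 to 757019 UMIs per mouse. In spleen and blood the same rule found 27 and 4 cells, too few to compare by mouse.

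Clec10a or Mgl2 was present in most of the cells. Clec10a, a galactose-binding lectin, averaged 516 ± 74.2 CPM (UMIs of the gene per 1000000 gene UMIs of the class in a mouse) in cDC2 of vehicle mice (mean ± SD, n = 4), against 112 ± 36.8 in macrophages, the next highest class, and 7.73 ± 1.72 in cDC1. Mgl2, its close relative, averaged 378 ± 134 in cDC2 and 44.1 ± 5.4 in macrophages. Ffar2, a receptor for short-chain fatty acids, averaged 107 ± 23.1 in cDC2 and 7.35 ± 4.02 in migratory dendritic cells. Napsa, an aspartic protease, was the least selective of these markers, at 1130.2 ± 82.8 in cDC2, 374 ± 53.9 in cDC1 and 364 ± 33.4 in B cells. At least 1 UMI of Clec10a or Mgl2 was present in 123 of 146 vehicle cells and 84 of 93 treated cells. These levels describe the gate and were not tested.

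**Figure D1:**
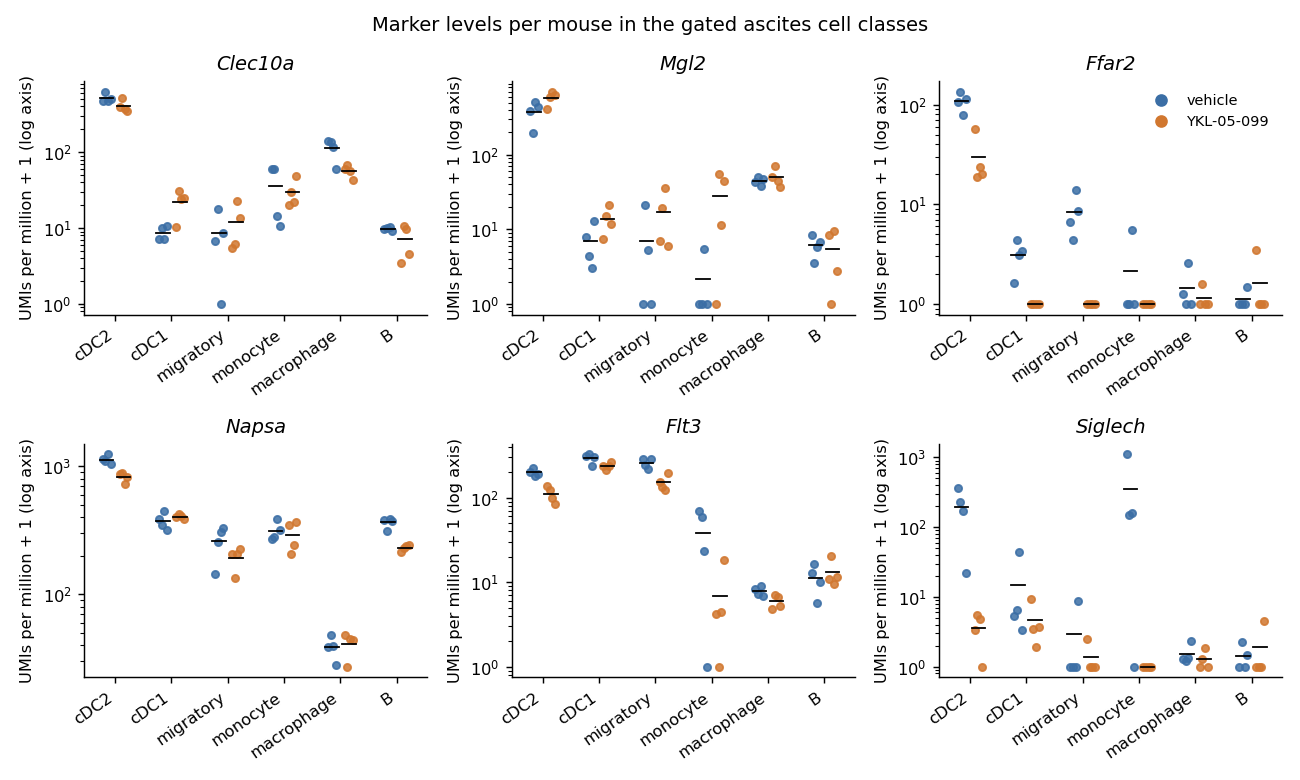
CPM plus 1 (log axis) of 6 genes in 6 gated ascites cell classes, with a point per mouse and a line at the mean of the 4 mice of an arm. Clec10a, Mgl2 and Ffar2 are highest in cDC2, Flt3 is shared by cDC2, cDC1 and migratory dendritic cells, and Siglech, a plasmacytoid marker, is high in cDC2 of vehicle mice.

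A minority of the vehicle cells went against the label. In 15 of 146 vehicle cells (10.3%, exact 95% interval 5.87 to 16.4) there were 14 to 94 UMIs of the plasmacytoid dendritic cell markers Siglech, Klk1, Ccr9, Cox6a2 and Pacsin1, while every other member had at most 2. They were 6, 3, 5 and 1 of the cells of vehicle mice 1 to 4. None of the 93 treated cells was of this kind, which allows a share of up to 3.23% (3 cells of the total, with an exact 95% upper limit of 3.89%). These intervals cover counting error only. Among all assigned ascites cells, 15, 7, 8 and 3 cells of vehicle mice 1 to 4 had at least 10 UMIs of these markers. In treated mice 1 to 4 there were 2, 1, 2 and 0. None of the 239 cells was among the 5% of ascites cells with most UMIs. Whether these 15 cells are doublets, plasmacytoid cells with Cd209a or an intermediate was not tested. They occurred in a single arm, so the main counts and the calls that changed are also given without them.

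**Figure D2:**
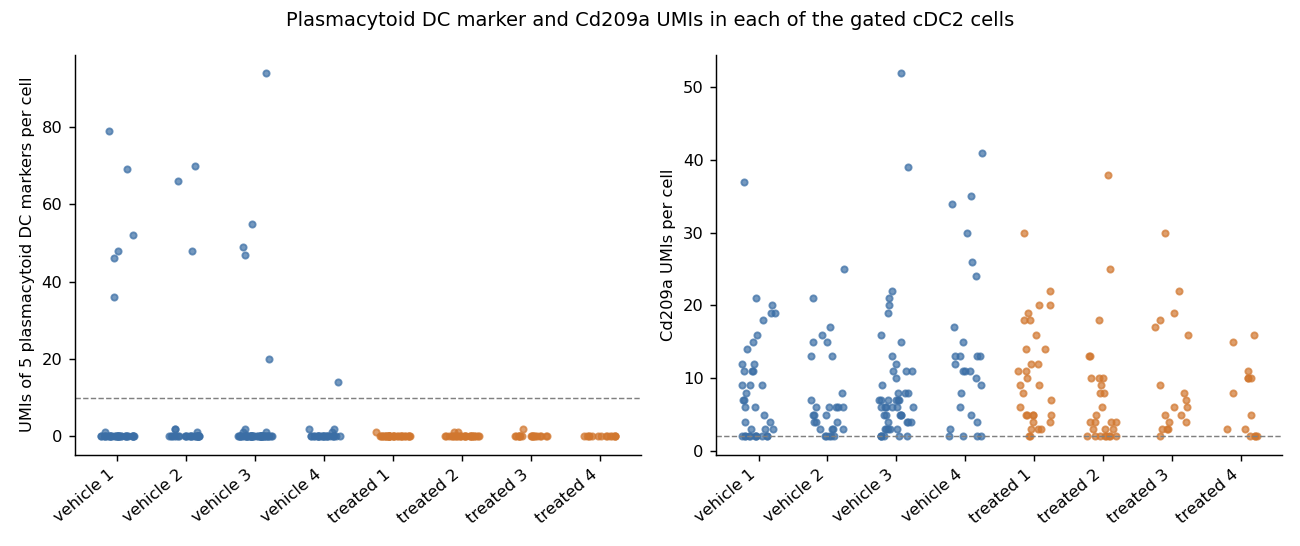
UMIs per cell of 5 plasmacytoid dendritic cell markers (left, dashed line at 10 UMIs) and of Cd209a (right, dashed line at the gate's 2 UMIs), with a point for each of the 239 cells by mouse. All 15 cells above 10 plasmacytoid marker UMIs belong to vehicle mice, and Cd209a counts reach above 20 in both arms.

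Cells at the gate's edge differed in marker content. The 74 cells that met the rest of the rule with a single Cd209a UMI, just outside, had 376 CPM of Clec10a and 430.0 of Mgl2, and 6 of them were plasmacytoid-marker cells. The 41 cells with exactly 2 Cd209a UMIs, just inside, had 383 and 285, and 7 of them were plasmacytoid-marker cells. The 198 cells with 3 or more had 491 and 492, and 8 of them were plasmacytoid-marker cells. Siglech was at 186 CPM in the cells just outside, 452 in the members with exactly 2 Cd209a UMIs and 63.3 in those with 3 or more.

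Traces of other cell types were not equal between the arms. The macrophage list holds C1qa, C1qb and C1qc and the cDC1 list Xcr1 and Clec9a, all limited by the gate. The C1q genes also chose the macrophages, so low sums in cDC2 and their distance from macrophages were partly fixed in advance. The summed level of 19 macrophage markers was 1202 to 1695 CPM in cDC2 of vehicle mice and 931 to 1166 in treated mice, against 29524 to 36868 in macrophages of vehicle mice. Of 11 monocyte markers the sums were 1227 to 1693 and 827 to 1478. Of 14 cDC1 markers they were 569.8 to 769 and 366 to 523, and without the plasmacytoid-marker cells 449.7 to 583 in vehicle mice. The part of these traces in the results below was not tested.

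The first comparison asked whether the share of cDC2 among ascites cells differed with the inhibitor. They made up 4.64%, 3.54%, 6.34% and 2.47% of the assigned cells of vehicle mice 1 to 4 and 4.76%, 3.99%, 2.86% and 1.73% of those of treated mice 1 to 4. The means were 4.25% ± 1.65 and 3.34% ± 1.33 (SD, n = 4 each), the arms overlapped, and the difference was smaller than the spread (exact two-sided permutation p = 0.429). Without the plasmacytoid-marker cells the vehicle mean was 3.80% ± 1.42, and the exact permutation p was 0.657 (n = 4 each). Among gated dendritic cells (cDC2, cDC1 and migratory) the cDC2 share was 32.4% ± 7.97 in vehicle and 17.8% ± 4.30 in treated mice. The arms did not overlap (p = 0.0286 by exact permutation, not adjusted, the smallest that 4 against 4 mice allow), in mice whose migratory cells numbered 11 to 22 in the vehicle arm and 30 to 58 in the treated arm. Without the plasmacytoid-marker cells these shares were 30.3% ± 7.89 and 17.8% ± 4.38, with the same p by exact permutation and no overlap. The members' depth did not differ beyond the spread between mice, with medians of 14473 ± 1250 and 14704 ± 1531 UMIs per cell (exact permutation p = 0.857, n = 4 each). The gate needs Cd209a UMIs, so all these shares also move with the Cd209a level, whose part was not tested.

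The second comparison asked which transcripts of cDC2 differed with treatment. UMIs were summed per mouse and tested with edgeR's quasi-likelihood F test and Benjamini-Hochberg (BH) adjustment over all genes tested. Mice with at least 20 members entered, all 4 vehicle mice and treated mice 1 and 2. Of 5159 genes outside the gate, 106 were higher (2.05% of genes tested) and 117 lower (2.27%) in treated cDC2 at an adjusted p under 0.05, and 886 had an unadjusted p under 0.05. These 223 genes were 4.32% of genes tested. Over all 8 mice, 6 of which the test had used, the arms did not overlap for 183 of them and for 12.4% of all genes tested, which is no independent check. The 24 leading genes below were taken from such calls, so their lack of overlap was fixed in advance. A second test, chosen after seeing the data, left out the plasmacytoid-marker cells and took all 8 mice. It called 189 of 4483 genes higher (4.22%) and 219 lower (4.89%), and 178 of the 223 first calls were among them. It is named the 8-mouse test below. Of 52 genes called in the first test and taken up by the rule for named genes, Il1r2, Cd209d, Nlrp3 and Zbp1 missed its threshold, Itgae and Pacsin1 were not tested in it, and the others passed in the same direction. Leaving out treated mouse 2 reduced the first test to 47 higher and 34 lower genes, and leaving out vehicle mouse 4 raised it to 160 and 217, so the number of calls depended on single mice. Of the 24 leading genes, 12 in each direction, 21 kept their call under every alternative that gave them a value.

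Some transcripts of the SIK and CREB pathway rose. Crem, a cyclic AMP-responsive transcription factor and CREB target, stood at 15.6, 11.5, 9.25 and 13.8 CPM in vehicle mice 1 to 4 and at 105, 117, 154 and 106 in treated mice 1 to 4. Every treated mouse was several times above every vehicle mouse, a log2 change of 3.16 ± 0.30 (SE; adjusted p = 1.5e-08) and of 3.25 ± 0.28 (adjusted p = 2.9e-11) in the 8-mouse test. Pde3b, a phosphodiesterase that degrades cyclic AMP, stood at 25.3, 18.5, 23.8 and 32.3 CPM in vehicle mice 1 to 4 and at 86.7, 102, 82.7 and 126 in treated mice 1 to 4. The arms were far apart here too, with a log2 change of 1.91 ± 0.28 (SE; adjusted p = 3.8e-05) and of 1.83 ± 0.25 (adjusted p = 1.3e-06) in the 8-mouse test. Crtc3, a CREB coactivator that the SIKs phosphorylate, went from 58.3 ± 7.89 CPM in vehicle mice to 148 ± 23.1 in treated mice (SD, n = 4 each), a log2 change of 1.27 ± 0.23 (SE; adjusted p = 0.00063) that missed the threshold without treated mouse 1 (adjusted p = 0.057).

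Of 17 CREB target genes tested, Crem, Pde3b and Fos rose and Per1 fell, and the list's median log2 change was -0.27 against -0.01 for all genes. Fos, an immediate early factor, was at a log2 change of 0.47 and Per1, a clock gene, at -0.85, and both lost the call when single mice were left out (adjusted p = 0.46 without treated mouse 1 and adjusted p = 0.33 without treated mouse 1, and both also without vehicle mouse 1 or 3, at 0.079 and 0.13 for Fos and 0.14 each for Per1). In the 8-mouse test 3 rose and 2 fell, the second being Rgs2, a regulator of G protein signalling (-0.53 ± 0.16, adjusted p = 0.033). The nuclear receptors Nr4a1, Nr4a2 and Nr4a3, common CREB targets, were at -0.61, -0.27 and -0.51, none past the threshold. Of 14 genes of the SIK pathway only Crtc3 passed the first test, and in the 8-mouse test Crtc3 and Sik3 rose (1.08 ± 0.31, adjusted p = 0.022 for Sik3) and Mef2a, a transcription factor, fell (-0.71 ± 0.23, adjusted p = 0.042). Sik1, itself a CREB target, was at 189, 155, 153 and 78.4 CPM in vehicle mice 1 to 4 and at 79.6, 109, 45.1 and 87.1 in treated mice 1 to 4. The arms overlapped and Sik1 passed neither test (log2 change -0.63 ± 0.29, adjusted p = 0.26).

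The largest rise among the leading genes was that of Ramp3, which encodes an accessory protein of the calcitonin family receptors. Ramp3 stood at 5.83, 2.31, 11.9 and 20.8 CPM in vehicle mice 1 to 4 and at 211, 162, 210.4 and 227 in treated mice 1 to 4. It was near the floor in vehicle cDC2 and clearly present in every treated mouse, a log2 change of 4.15 ± 0.32 (SE; adjusted p = 2.4e-10), and 4.18 ± 0.28 (adjusted p = 1.9e-14) in the 8-mouse test. After thinning each cell to 5000 UMIs, 2.57% ± 1.82 of vehicle and 49.2% ± 7.46 of treated cells had a Ramp3 UMI (SD, n = 4 each), with 9.59% and 75.3% before thinning. In B cells thinned alike the shares were 2.77% and 6.33%, so the vehicle share of cDC2 was near that of vehicle B cells. The part of free RNA in these shares was not tested. Ffar2, the fatty acid receptor that marks these cells, moved the other way. It stood at 105, 134, 77.9 and 113 CPM in vehicle mice 1 to 4 and at 56.2, 17.7, 22.5 and 19.4 in treated mice 1 to 4, lower in every treated mouse than in any vehicle mouse. The log2 change was -1.53 ± 0.35 (SE; adjusted p = 0.016), adjusted p = 0.26 without treated mouse 2, and -1.90 ± 0.29 (adjusted p = 4.4e-05) in the 8-mouse test. Ramp3 and Ffar2 were the genes called among 9 tested of a list of cyclic AMP-linked receptors and their partners, 1 in each direction.

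Got1, the cytosolic aspartate transaminase of the malate-aspartate shuttle, rose about as uniformly. Got1 stood at 70, 50.8, 58.1 and 73.8 CPM in vehicle mice 1 to 4 and at 297, 357, 357 and 406 in treated mice 1 to 4. No treated mouse came near a vehicle mouse, and the log2 change was 2.37 ± 0.19 (SE; adjusted p = 2.5e-10), and 2.44 ± 0.17 (adjusted p = 5.5e-14) in the 8-mouse test. It was the single gene called among 8 tested of the shuttle and amino acid list, whose median was -0.45. Ifi27l2a, an interferon-inducible mitochondrial protein, stood at 189, 222, 222 and 196 CPM in vehicle mice 1 to 4 and at 1002, 782, 913 and 982 in treated mice 1 to 4, a log2 change of 2.10 ± 0.16 (SE; adjusted p = 6.8e-11). Antxr2, a cell surface receptor for anthrax toxin and collagen VI, went from 32.4 ± 14.3 CPM in vehicle mice to 140.3 ± 22.1 in treated mice (log2 change 2.14 ± 0.27, adjusted p = 3.8e-06). Its arms did not overlap, as the rule for leading genes required. 

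**Figure D3:**
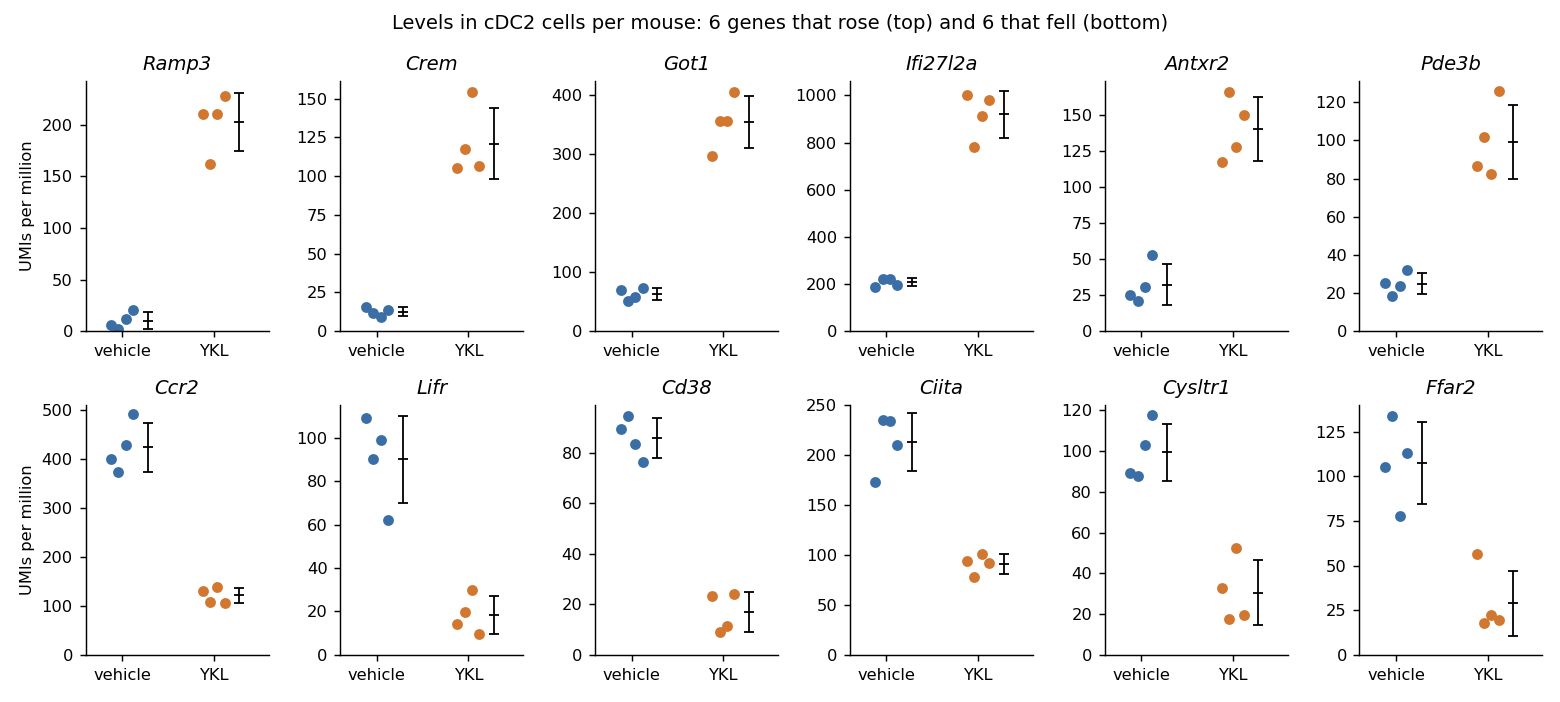
CPM in cDC2 of each mouse for 6 genes that rose and 6 that fell, with the mean and SD over the 4 mice of an arm beside the points and each vertical axis starting at 0. In all 12 panels the treated mice lie on one side of the vehicle mice, as for Ramp3 and Ccr2. Ffar2 aside, the genes were taken from calls whose arms did not overlap, so this was fixed by their selection.

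Several other genes also rose. S100a10, the annexin A2 partner, went from 209 ± 31.9 CPM in vehicle mice to 591 ± 114 in treated mice (log2 change 1.40 ± 0.17, adjusted p = 1.8e-06). Vim, the intermediate filament vimentin, went from 680.2 ± 158 CPM in vehicle mice to 1484 ± 229 in treated mice (log2 change 1.13 ± 0.15, adjusted p = 1.6e-05), and the tubulin gene Tuba1a changed by 1.5 ± 0.19 (SE; adjusted p = 3.5e-06). Foxn3, a forkhead repressor, changed by 1.48 ± 0.20 (SE; adjusted p = 1.4e-05) and Cenpa, a centromeric histone, by 2.10 ± 0.24 (SE; adjusted p = 4.5e-07). Of 9 proliferation genes tested, 0 were called in either direction by edgeR (1 at an unadjusted p under 0.05, 0 by DESeq2), 9 had positive values, and 3 of 146 vehicle and 4 of 93 treated cells had at least 3 UMIs of cycle markers. All 4 of these treated cells came from treated mouse 2, which is 1 of the 2 treated mice in the first test. The 8-mouse test could test 3 proliferation genes, of which 2 had positive and 1 had negative values and 0 were called (0 at an unadjusted p under 0.05 in edgeR). Il7r, the interleukin 7 receptor, rose from 21.3 ± 3.4 CPM in vehicle mice to 66.1 ± 12.5 in treated mice, a log2 change of 1.70 ± 0.30 (SE; adjusted p = 0.00047) and of 2.41 ± 0.32 (adjusted p = 8.1e-07) in the 8-mouse test. Csf2rb, the shared receptor chain for GM-CSF, was at 0.74 ± 0.20 (SE; adjusted p = 0.028) and lost its call without vehicle mouse 3 or treated mouse 2 (adjusted p = 0.13 and 0.41), and at 0.86 ± 0.18 (adjusted p = 0.0013) in the 8-mouse test.

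Among 20 type I interferon genes tested, 3 rose (Ifi27l2a, Trim25 and Zbp1), 0 fell, and the median log2 change was 0.47 against -0.01 for all genes. Trim25, a ubiquitin ligase of RNA sensing, changed by 1.03 ± 0.24 (SE; adjusted p = 0.01) (adjusted p = 0.31 without treated mouse 2). Zbp1, a nucleic acid sensor, was at 1.29 ± 0.34 (SE; adjusted p = 0.023) with overlapping arms, lost the call without vehicle mouse 1 or treated mouse 1 (adjusted p = 0.073 and 0.31), and missed the threshold in the 8-mouse test (adjusted p = 0.06). That test called 5 of 18 higher, among them the antiviral tetherin gene Bst2 (0.58 ± 0.17, adjusted p = 0.026) and the DNA sensor family member Ifi209 (1.01 ± 0.26, adjusted p = 0.0095) and not Zbp1, and 1 lower, Ifi203. Isg15 and Irf7, which respond strongly to interferon, were at 0.94 and 0.94 with overlapping arms and adjusted p = 0.26 and 0.31.

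The interferon-inducible transmembrane genes Ifitm1, Ifitm2 and Ifitm3, neighbours on chromosome 7 that limit virus entry, did not all rise. Ifitm3 was named by the rule for leading genes and its relatives were chosen after their values were seen. Their starts are shown because they differ in an interferon-response motif, GAAA followed after any 2 bases by a second GAAA, searched on both strands of the 300 bases around each start (250 before, 50 after). Each line gives 70 bases before and 30 bases after the start on the gene's strand (RefSeq, GRCm38.p6), with the motif in capitals.
Ifitm1, chr7:140968006-140968105, plus strand: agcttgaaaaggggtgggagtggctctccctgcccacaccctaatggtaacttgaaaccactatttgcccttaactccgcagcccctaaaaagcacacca
Ifitm2, chr7:140955932-140956031, minus strand: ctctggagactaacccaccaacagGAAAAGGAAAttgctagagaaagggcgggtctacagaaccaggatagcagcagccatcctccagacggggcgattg
Ifitm3, chr7:141010715-141010814, minus strand: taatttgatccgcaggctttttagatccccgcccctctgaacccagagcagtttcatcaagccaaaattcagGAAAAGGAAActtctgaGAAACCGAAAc

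Ifitm3, with 2 matches that begin at bases 3 and 20 from the start, stood at 1483, 1606, 1612 and 1788 CPM in vehicle mice 1 to 4 and at 3119, 3072, 2954 and 3048 in treated mice 1 to 4. All treated mice were above all vehicle mice (log2 change 0.93 ± 0.12, adjusted p = 4.1e-06). Ifitm2, with 1 match that begins 46 bases before the start (base -46), went from 1035 ± 185 CPM in vehicle mice to 1635 ± 117 in treated mice (log2 change 0.61 ± 0.14, adjusted p = 0.0072). Ifitm1, with 0 matches in the window, went from 1463 ± 257 CPM in vehicle mice to 1016 ± 239 in treated mice and was at -0.33 ± 0.15 (SE; adjusted p = 0.26) in the first and -0.65 ± 0.15 (adjusted p = 0.0053) in the 8-mouse test. The motif occurred in 3.99% of 27025 genes with a promoter entry and in 7 of the 83 called higher genes that had one (8.43%), beside 4.34% of the 4145 tested genes with one. Among called lower genes with a promoter entry it was in 4 of 84 (4.76%). Among named genes with one it was in 1 of 16 higher (6.25%, Ifitm3) and 2 of 21 lower (9.52%, Coro2a and Fcgr4). The short CREB motif TGACG was in 31 of the 83 called higher genes (37.3%), beside 39.4% of the tested genes. Its full palindrome TGACGTCA, which contains the short one, was in 3 of the 83 (3.61%), beside 4.10%. These matches are descriptions of letters, not of binding.

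Some chemokine receptors fell. Of 19 chemokine and trafficking genes tested, 4 were lower and 0 higher, and the median log2 change was -0.46 against -0.01 for all genes. Ccr2, the receptor that draws monocytes and cDC2 precursors to inflamed tissue, stood at 400.5, 374, 429 and 491 CPM in vehicle mice 1 to 4 and at 131, 109, 139 and 106 in treated mice 1 to 4. Every treated mouse was far below every vehicle mouse, a log2 change of -1.82 ± 0.19 (SE; adjusted p = 8.6e-08) and of -1.80 ± 0.16 (adjusted p = 2.9e-11) in the 8-mouse test. Ccr2 is also a monocyte marker and the single one called of 8 tested. Without the plasmacytoid-marker cells the sum over the 11 monocyte markers was 984 to 1341 CPM in vehicle and 827 to 1478 in treated mice. This sum includes Ccr2 itself, so it is no separate measure of monocyte content. Ccr1, a receptor for inflammatory chemokines, went from 88.2 ± 14.3 CPM in vehicle mice to 25.6 ± 18 in treated mice. Its log2 change was -1.64 ± 0.32 (SE; adjusted p = 0.0017), and the call depended on 1 mouse (adjusted p = 0.063 without treated mouse 1).

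Ccl2, the ligand of Ccr2, was at -1.09 ± 0.30 (SE; adjusted p = 0.031), with overlapping arms, and its call was lost without vehicle mouse 1 or either treated mouse (adjusted p = 0.083, 0.20 and 0.24). The 8-mouse test called the same 4 genes lower and 0 higher. Ccl5 stood at 319, 930.1, 267 and 307 CPM in vehicle mice 1 to 4 and at 77.3, 35.5, 86.4 and 0 in treated mice 1 to 4. Its arms did not overlap, but it missed the threshold (log2 change -3.02 ± 0.97, adjusted p = 0.23). Ccr7, the receptor that guides dendritic cells to lymph nodes, was at 85.5, 16.2, 18.5 and 27.7 CPM in vehicle mice 1 to 4 and at 35.1, 102, 60.1 and 48.4 in treated mice 1 to 4, and the arms overlapped (log2 change 0.91 ± 0.86, adjusted p = 0.71).

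Ciita, the master regulator of MHC class II genes, stood at 173, 235, 234 and 209.9 CPM in vehicle mice 1 to 4 and at 93.7, 77.6, 101 and 91.9 in treated mice 1 to 4. The treated values were below all vehicle values, with a log2 change of -1.32 ± 0.22 (SE; adjusted p = 0.00015) and of -1.36 ± 0.18 (adjusted p = 6.7e-07) in the 8-mouse test. Of 15 MHC class II presentation genes tested, Ciita and H2-Oa were lower and 0 higher, the median log2 change was -0.21, and 15 of 15 had negative values. H2-Oa, a chain of the peptide-loading regulator H2-O, was close to the threshold (-0.69 ± 0.20, adjusted p = 0.0499), and lost its call without vehicle mouse 1, 2 or 3 or treated mouse 2 (adjusted p = 0.053, 0.093, 0.16 and 0.58). The classical chains H2-Aa, H2-Ab1 and H2-Eb1 were at -0.16, -0.01 and -0.21, none past the threshold. The 8-mouse test called 6 lower: Ciita, H2-Oa, H2-DMb2 (-0.72 ± 0.17, adjusted p = 0.0061), the ubiquitin ligase March1 (-1.17 ± 0.28, adjusted p = 0.0046), the protease Ctss (-0.42 ± 0.11, adjusted p = 0.0085) and H2-Eb1 (-0.33 ± 0.10, adjusted p = 0.033). MHC class I presentation leaned the other way, with a median of 0.28 and 0 of 18 genes called by edgeR (6 at an unadjusted p under 0.05, 0 by DESeq2, 3 negative, 15 positive). The 8-mouse test called 5 higher and 0 lower: H2-Q7, the proteasome activators Psme1 and Psme2, and the chaperones Calr and Pdia3.

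Some genes of dendritic cell identity fell. Id2, a regulator of dendritic cell development, stood at 371, 538, 651 and 424 CPM in vehicle mice 1 to 4 and at 155, 182, 116 and 382 in treated mice 1 to 4. Treated mouse 4 overlapped the vehicle range, the log2 change was -1.57 ± 0.21 (SE; adjusted p = 3.6e-05), and it was -1.45 ± 0.34 (adjusted p = 0.042) in the 8-mouse test. Ltb, lymphotoxin beta, was at -1.38 ± 0.34 (SE; adjusted p = 0.02), with adjusted p = 0.3 without treated mouse 2, and at -1.80 ± 0.30 (adjusted p = 0.00019) in the 8-mouse test. Flt3 was at 202, 226, 179.7 and 191 CPM in vehicle mice 1 to 4 and at 138, 122, 97.7 and 82.2 in treated mice 1 to 4. Its arms did not overlap, yet it missed the threshold in the first test (-0.62 ± 0.20, adjusted p = 0.071) and passed it in the 8-mouse test (-0.74 ± 0.18, adjusted p = 0.0059). Napsa likewise went from -0.37 (adjusted p = 0.12) in the first to -0.56 ± 0.11 (adjusted p = 0.00076) in the 8-mouse test. Irf4, the factor that cDC2 depend on, was at -0.01 ± 0.37 (SE; adjusted p = 1), Zbtb46, a factor of conventional dendritic cells, at 0.71 ± 0.49 (SE; adjusted p = 0.5), and the markers Clec10a and Mgl2 at -0.18 ± 0.16 (SE; adjusted p = 0.66) and 0.39 ± 0.33 (SE; adjusted p = 0.65). None of these 4 passed the first test, and Clec10a was at -0.43 ± 0.14 (adjusted p = 0.0498) in the 8-mouse test. Of 23 lineage genes tested, 1 was higher and 2 lower, and in the 8-mouse test 1 and 5.

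Of 15 cytokine and cytokine receptor genes tested, Il7r and Il1r2 rose and Il13ra1 fell. Il1r2, a decoy receptor for interleukin 1, went from 215 ± 33 CPM in vehicle mice to 322 ± 41.9 in treated mice (log2 change 0.65 ± 0.17, adjusted p = 0.023), and lost its call when vehicle mouse 3 or either treated mouse was left out (adjusted p = 0.10, 0.057 and 0.24). In the 8-mouse test Il1r2 was at 0.46 ± 0.16 (adjusted p = 0.052). Il13ra1, a receptor chain for interleukins 4 and 13, was at -0.83 ± 0.24 (SE; adjusted p = 0.045), with adjusted p = 0.062, 0.074 and 0.086 without vehicle mouse 1, 2 or 3 and 0.61 without treated mouse 2. Nlrp3, an inflammasome sensor, was at -1.17 ± 0.31 (SE; adjusted p = 0.02) with overlapping arms, and lost its call when vehicle mouse 1 or either treated mouse was left out (adjusted p = 0.053, 0.12 and 0.14). In the 8-mouse test Nlrp3 was at -0.76 ± 0.28 (adjusted p = 0.091).

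Several other genes fell. Lifr, the receptor for leukaemia inhibitory factor, stood at 109, 90, 99.1 and 62.3 CPM in vehicle mice 1 to 4 and at 14.1, 19.9, 30.1 and 9.68 in treated mice 1 to 4 (log2 change -2.41 ± 0.35, adjusted p = 3.8e-05). Cd38, an NAD-consuming ectoenzyme, went from 85.8 ± 7.98 CPM in vehicle mice to 16.9 ± 8.0 in treated mice (log2 change -2.41 ± 0.36, adjusted p = 4.5e-05). Cysltr1, a leukotriene receptor, changed by -1.98 ± 0.31 (SE; adjusted p = 7.5e-05) and Vsir, the checkpoint ligand VISTA, by -1.62 ± 0.28 (SE; adjusted p = 0.00038). These groups did not overlap, as the rule for leading genes required. Cyp7b1, an oxysterol hydroxylase, had 99 UMIs in the vehicle and 2 in the treated cells and was at 0 in 3 of 4 treated mice, 31.3-fold lower (exact 95% counting interval 8.43 to 262). Vsir was the single call among 13 costimulation and checkpoint genes tested. Cd274 (PD-L1) and Cd86 were at -0.70 and -0.66, with adjusted p = 0.31 and 0.085, and Cd86 passed the 8-mouse test (-0.80 ± 0.19, adjusted p = 0.0031).

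A further 5 genes also fell. Fcgr4, an Fc receptor and a macrophage marker, was at -1.58 ± 0.34 (SE; adjusted p = 0.0045) and lost its call without treated mouse 2 (log2 change -1.45). The summed macrophage markers, Fcgr4 and the gate's C1q genes among them, were lower in treated mice as given above. Zfp36l2, an RNA-decay protein, went from 1114 ± 90.7 CPM in vehicle mice to 613 ± 140.1 in treated mice (log2 change -0.90 ± 0.15, adjusted p = 0.00013) and the histone gene H3f3b changed by -0.79 ± 0.13 (SE; adjusted p = 0.00022). Coro2a, a coronin, changed by -1.47 ± 0.23 (SE; adjusted p = 7.5e-05) and Lyst, a regulator of lysosome traffic, by -1.67 ± 0.25 (SE; adjusted p = 4.6e-05). The groups of these genes did not overlap, which the rule for leading genes required of all but Fcgr4.

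Protein-folding genes leaned upward. Of 19 heat shock and folding genes tested, 3 were higher, 0 lower and the median log2 change was 0.42. These were the chaperones Hsp90ab1, from 984 ± 212 CPM in vehicle mice to 1763 ± 252 in treated mice (log2 change 0.73 ± 0.15, adjusted p = 0.003), Hspe1 (0.77 ± 0.17, adjusted p = 0.0055) and Dnaja1 (0.82 ± 0.20, adjusted p = 0.013). Each lost its call without treated mouse 2 (adjusted p = 0.16, 0.24 and 0.15), and Dnaja1 also without vehicle mouse 3 or treated mouse 1 (0.064 and 0.055). The 8-mouse test called 9 of 19 higher and 0 lower, adding Hspd1, Hspa8, Hsp90aa1, Hsp90b1, Pdia6 and Chordc1. The stress-induced Hspa1a and Hspa1b were not among them, at 0.02 and 1.52.

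Glycolysis genes leaned downward, with 2 of 14 lower, 0 higher and a median of -0.29. Tpi1, triosephosphate isomerase, went from 229.7 ± 39.2 CPM in vehicle mice to 121 ± 24.5 in treated mice (log2 change -1.08 ± 0.22, adjusted p = 0.0021, adjusted p = 0.063 without treated mouse 1) and Pgam1, phosphoglycerate mutase, from 340.5 ± 26.2 CPM in vehicle mice to 205 ± 50.3 in treated mice (log2 change -0.82 ± 0.18, adjusted p = 0.0044, adjusted p = 0.1 without treated mouse 2). The 8-mouse test added the glucose transporter Slc2a1 (-1.07 ± 0.32, adjusted p = 0.025). Gapdh and Ldha were at -0.22 and -0.02, neither past the threshold. Of 15 NF-kB genes, 0 were called in either direction by edgeR in the first test (3 at an unadjusted p under 0.05, 0 by DESeq2) and 0 in the 8-mouse test (4 at an unadjusted p under 0.05). Of 19 immediate early and stress factors, Fos and Jun were higher and Btg1 lower (0.46 for Jun and -0.58 for Btg1), and both calls depended on single mice. Jun was at adjusted p = 0.20, 0.17, 0.15 and 0.27 without vehicle mouse 1, vehicle mouse 3, treated mouse 1 and treated mouse 2, and Btg1 at 0.12, 0.053 and 0.41 without vehicle mouse 1, vehicle mouse 3 and treated mouse 2.

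**Figure D4:**
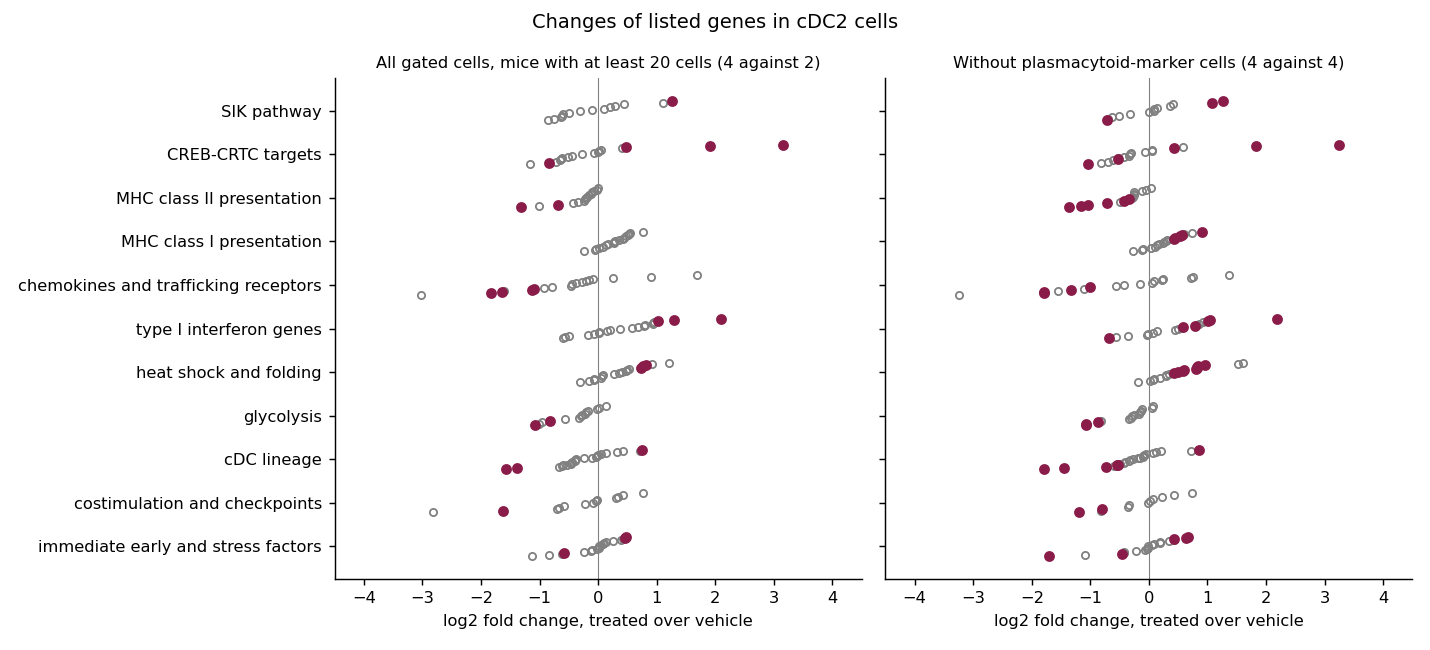
Log2 change of each tested gene of 11 lists in cDC2, with filled points at an adjusted p under 0.05, for all gated cells with 4 against 2 mice (left) and without plasmacytoid-marker cells with 4 against 4 mice (right). Chemokine and MHC class II genes lean left and heat shock genes right in both panels, and Ccr9, at 0 UMIs in treated mice, is not drawn.

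Some calls rested on the plasmacytoid-marker cells. Pacsin1, one of their markers, had 51 UMIs in vehicle and 1 in treated cells, and 4 and 1 once those cells were left out. Cd209d, a lectin gene beside Cd209a, was at -1.37 ± 0.34 (SE; adjusted p = 0.016) with all cells, lost its call without vehicle mouse 1 or either treated mouse (adjusted p = 0.0504, 0.12 and 0.077), and was at 0.23 ± 0.58 (adjusted p = 0.91) without those cells in the same mice and 0.22 ± 0.46 (adjusted p = 0.87) in the 8-mouse test. Bcl11a, a plasmacytoid transcription factor chosen after its values were seen, went from -1.21 (adjusted p = 0.013) to -0.15 ± 0.36 (adjusted p = 0.90) without those cells in the same mice. Itgae (CD103), by contrast, had 58 UMIs in vehicle and 2 in treated cells, and 56 and 2 without them, 19.1-fold lower (exact 95% counting interval 5.05 to 162), although its call was lost without treated mouse 2 (adjusted p = 0.055). Itgae is also on the cDC1 list, whose sums leaned lower in treated mice as given above, with overlapping ranges once the plasmacytoid-marker cells were left out. The part of cDC1 traces in the fall of Itgae was not tested. Of the 218 first calls that could be tested without plasmacytoid-marker cells in the same mice, 191 kept their call, where 4.7% of all genes tested were called.

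The members also varied among themselves. In cells thinned to 5000 UMIs, the ratio of variance to mean was taken as a median over the mice with a UMI of the gene. Its median over all 3003 genes with a mean of at least 0.2 UMI was 1.05. The ratio was 15.6 for Siglech and 7.76 for Ccr9, the plasmacytoid markers, and 10.2 for Ifitm1, 7.51 for Mgl2 and 6.32 for Ccl5. The values of Siglech and Ccr9 cover vehicle mice only, as neither had a UMI in treated mice after thinning. That of Ccl5 leaves out treated mouse 4 for the same reason. Without the plasmacytoid-marker cells Ifitm1, Mgl2 and Ccl5 were still at 9.19, 7.41 and 6.32. Mgl2 split the members: 27.3% ± 10.3 of vehicle and 43.8% ± 6.7 of treated cells had a UMI after thinning (SD, n = 4 each), with 34.2% and 48.4% before. B cells thinned alike had 1.38% and 5.06%. Clec10a was more even, at 66.5% ± 10 and 75.2% ± 13.2, and Napsa was present in nearly every cell. Gm42418, which overlaps ribosomal RNA, had the highest ratio (55.1), with Malat1 next (22.2).

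Several changes were also seen in the share of members with a UMI. Vdr, the vitamin D receptor, chosen after its values were seen, was detected in 8.65% ± 4.27 of vehicle and 43.5% ± 15.2 of treated cells after thinning, and in 0.692% and 1.27% of B cells. Antxr2 was detected in 11.8% ± 7.11 and 49.7% ± 5.89 of members. Ffar2 went down from 33.7% ± 4.45 to 9.59% ± 1.79, with 0% of B cells in both arms. Before thinning these shares over all cells were 23.3% and 59.1% for Vdr, 36.3% and 76.3% for Antxr2 and 52.1% and 18.3% for Ffar2. For all 3 genes every mouse of one arm lay beyond every mouse of the other. Itgae and Cyp7b1 were detected in fewer members, in 7.73% ± 2.54 and 15.8% ± 6.6 of vehicle cells and 0% of treated cells after thinning, and in 16.4% and 27.4% of vehicle cells and 2.15% of treated cells each before it. Thinning left 146 vehicle and 92 of 93 treated members.

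The third comparison asked whether cDC2 responded as the other dendritic cells did, with an interaction term of cell class and treatment and the mouse as a block. Against cDC1 (472 cells over all mice) the first test had 4 vehicle and 2 treated mice, while the levels below are of all 8 mice. In it 32 of 7593 genes differed in their response (0.421%), 11 with the higher change in cDC2 (0.145%) and 21 with the lower (0.277%). The 8-mouse test without plasmacytoid-marker cells called 81 of 7065 (1.15%), and leaving out vehicle mouse 4 raised the first count to 54. Gcnt2, an enzyme that branches glycans, stood at 91.4, 66.9, 77.9 and 57.7 CPM in vehicle and 136, 144, 143 and 96.8 in treated cDC2. In cDC1 it stood at 16.3, 13.4, 14.5 and 10.3 and 243, 238, 243 and 268. It was thus higher in both classes after treatment but far more so in cDC1, a difference of log2 changes of -3.20 ± 0.28 (adjusted p = 6.6e-11).

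Ccl17, a chemokine of mature cDC2, differed in the other direction (3.60 ± 0.40, adjusted p = 4.6e-08). It stood at 1.94, 0, 91.1 and 0 in vehicle and 131, 62.1, 82.7 and 48.4 in treated cDC2, and at 20.7, 2.23, 242 and 3.96 and 32.4, 17.2, 6.43 and 20.9 in cDC1, where vehicle mouse 3 stood apart in both classes. Within cDC2 alone Ccl17 did not pass (1.68 ± 1.46, adjusted p = 0.68). Few members held it: 5.48% of vehicle and 9.68% of treated cDC2 had a Ccl17 UMI before thinning. In treated mouse 1, which had the highest level, 3.13% of cells had one after thinning. Ece1, an endothelin-converting protease, Ier3, an early response gene, and Ifngr1, the interferon gamma receptor, also changed more toward higher levels in cDC2, by 1.86 ± 0.27 (adjusted p = 3.8e-05), 1.79 ± 0.26 (adjusted p = 7.5e-05) and 1.15 ± 0.19 (adjusted p = 0.00031). Ifngr1 stood at 494, 502, 432 and 426 in vehicle and 271, 273, 313 and 275 in treated cDC1, lower in every treated mouse, while its cDC2 values overlapped.

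Dab2, an endocytic adaptor, differed by -1.39 ± 0.23 (adjusted p = 0.00036) and held in the 8-mouse test. S100a4 and Phlda1 differed in the first test (-1.64 ± 0.24, adjusted p = 0.00054 and -2.67 ± 0.49, adjusted p = 0.0019) and not with all 8 mice (adjusted p = 0.43 and 0.77), and Phlda1 also lost its call without treated mouse 2 (adjusted p = 0.39). Clec10a, Cd86 and Cd274 changed less, or downward, in cDC2 relative to cDC1, by -1.48 ± 0.35 (adjusted p = 0.032), -1.33 ± 0.26 (adjusted p = 0.003) and -2.29 ± 0.44 (adjusted p = 0.0026). Cd274 averaged 38.3 ± 4.51 in vehicle and 23.9 ± 4.2 in treated cDC2, and 13.6 ± 5.35 and 38.1 ± 5.91 in cDC1. Clec10a, Cd86 and Cd274 were examined after their values were seen. Clec10a was low in vehicle cDC1, as given above, in a library whose free RNA all mice shared. Id2 and Cd38 also differed in this interaction test, by -0.90 ± 0.19 (adjusted p = 0.011) and -2.27 ± 0.49 (adjusted p = 0.013). With all 8 mice and no plasmacytoid-marker cells Id2 did not pass (adjusted p = 0.070) and Cd38 did (adjusted p = 0.0030). For Crem, Ramp3 and Got1 the difference between the classes did not pass, at -0.10 ± 0.43 (adjusted p = 0.99), -0.70 ± 0.58 (adjusted p = 0.84) and 0.22 ± 0.22 (adjusted p = 0.89) (difference ± SE). A p that misses the threshold does not show that the responses were equal.

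**Figure D5:**
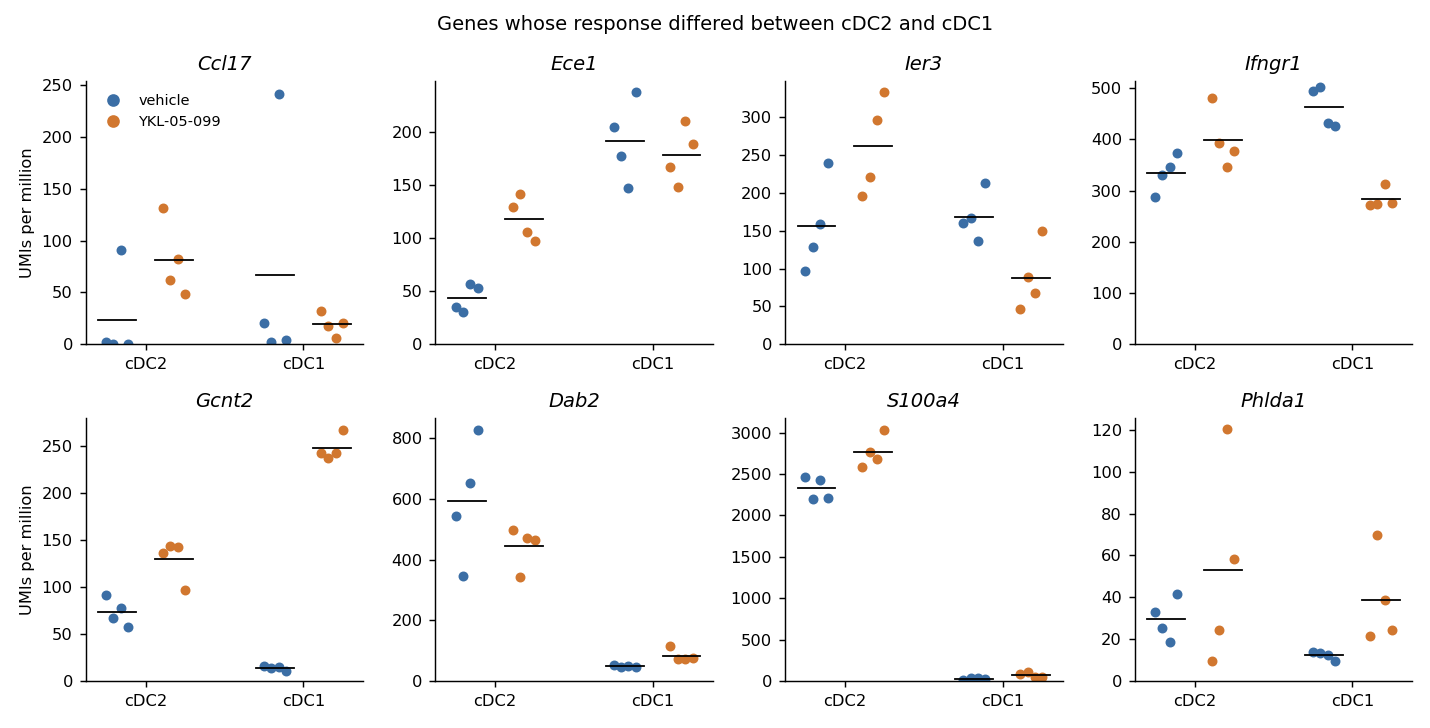
CPM per mouse (points) and means (lines) of 8 genes in cDC2 and cDC1 of vehicle and treated mice, with vertical axes from 0. Gcnt2 rises far more in cDC1 than in cDC2, Ifngr1 is lower in treated than in vehicle cDC1, and the high vehicle Ccl17 point in each class is mouse 3.

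Against migratory dendritic cells (253 cells, marked by Fscn1), the test with all 8 mice and no plasmacytoid-marker cells called 48 of 5122 genes (0.937%). The first test had 1 vehicle and 2 treated mice, with the lone vehicle mouse assumed to vary like the others. Its 52 calls of 6114 genes (0.851%), 24 with the higher change in cDC2 (0.393%) and 28 with the lower (0.458%), are given as a description. Ramp3 was among them in both tests. Migratory cells held 306, 137, 192 and 145 CPM in vehicle and 466, 500.3, 492 and 578 in treated mice, so they had Ramp3 in vehicle mice too, and the cDC2 change exceeded theirs by 2.83 ± 0.36 (adjusted p = 9.6e-06) in log2 with all 8 mice. Tagln2, an actin-binding protein, differed by 1.48 ± 0.22 (adjusted p = 0.00013). Irf8, an interferon regulatory factor of cDC1 and plasmacytoid cells, and Crip1 passed with all 8 mice and all cells (-3.23 ± 0.41, adjusted p = 7.9e-05 and 0.68 ± 0.18, adjusted p = 0.048), but not without the plasmacytoid-marker cells (adjusted p = 0.61 and 0.091). Ccl5, Id2, Mt1 and Wfdc17, called with 3 mice, did not pass with 8, at adjusted p = 0.29, 0.10, 0.15 and 0.17 with all cells and 0.28, 0.073, 0.061 and 0.31 without those cells. The difference from classical monocytes could not be fitted, because no vehicle mouse had 20 such cells.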

How the data were processed

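Single-cell RNA and hashtag libraries of ascites, and of spleen with blood, were analysed from the deposited UMI counts. The authors made these counts with Cell Ranger 6.1.1 on mm10, per the file headers and the submitters' processing notes. Cells needed 200 genes, 500 UMIs and a mitochondrial share of no more than 10%. A mouse was assigned where its hashtag held at least 80% of at least 20 hashtag UMIs. This leaves out doublets between mice only where the hashtags are mixed beyond that limit, and no doublets within a mouse. An alternative assignment, HTODemux, kept 30, 12, 36 and 19 cDC2 members of the vehicle mice in order as singlets of the same hashtag. Of the treated mice in order it kept 22, 14, 14 and 11. No doublet caller was run. In the ascites 11112 of 13688 barcodes passed and 6419 were assigned (median 8310 UMIs).

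Other classes were gated by their own transcripts: cDC1 by at least 3 UMIs of Xcr1 and Clec9a, migratory cells by at least 3 of Fscn1. UMIs were summed per mouse and tested with edgeR 4.0.16 (robust quasi-likelihood F test, TMM, filterByExpr, BH adjustment, threshold 0.05), in mice with at least 20 cells of a class. Levels are CPM of those sums. Differences between classes used a class by treatment interaction with the mouse as a block. Shares were compared by exact permutation over mice. DESeq2 1.42.0 and Seurat 5.3.0 (HTODemux) served as alternatives. The tests were checked on simulated counts. The members, lists and rules were chosen with earlier results of these data known. Named were the 12 genes of smallest p per direction (arms not overlapping, mean log2 CPM of at least 5), up to 4 called genes per list, a set of markers and pathway genes, and 4 genes per direction and interaction. Same-numbered mice did not deviate together (correlations 0.075, -0.037, -0.019 and 0.068), so the mice were not paired. Some genes are not reported here.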

Additional observations from a re-analysis of the deposited data

Results flagged for a closer look

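In 11 of 130 arms of 4 mice tested, for named genes, shares and depth, a single mouse stood apart from the other 3 by more than Dixon's 95% critical value for the ratio of its gap to the range. Chance gives about 1 in 20. In CPM, these were Cyp7b1 in treated mouse 4 (9.68), Ffar2 in treated mouse 1 (56.2), Pacsin1 in treated mouse 3 (3.76), Fos in vehicle mouse 3 (1123), Per1 in treated mouse 2 (108.6), Il1r2 in vehicle mouse 1 (264), Ccr1 in vehicle mouse 4 (66.9), Nlrp3 in treated mouse 3 (90.2), Trim25 in vehicle mouse 2 (36.9), Ccr7 in vehicle mouse 1 (85.5) and Zbtb46 in vehicle mouse 4 (34.6). The Pacsin1 value is a single UMI and the Cyp7b1 value 2 UMIs.

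The response to treatment differed between cDC2 and cDC1 by the interaction test for Ccl17 (3.60), Ece1 (1.86), Ier3 (1.79), Ifngr1 (1.15), Gcnt2 (-3.20), Dab2 (-1.39), S100a4 (-1.64) and Phlda1 (-2.67), each a log2 change in cDC2 minus that in cDC1. Between cDC2 and migratory dendritic cells it differed for Tagln2 (1.99), Wfdc17 (1.67), Crip1 (1.07), Ramp3 (4.33), Ccl5 (-4.26), Irf8 (-3.77), Id2 (-1.86) and Mt1 (-1.73). The migratory test had 1 vehicle mouse, and of its 8 genes Tagln2 and Ramp3 passed in all 8 mice without plasmacytoid-marker cells.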

How the results depend on the processing

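The counts of 106 higher and 117 lower genes became 70 higher with HTODemux, 56 and 60 with DESeq2's Wald test, 258 and 275 with a gate at 1 Cd209a UMI, 213 and 214 with at least 10 cells per mouse, 183 lower with no low-count filter, and 189 and 219 without plasmacytoid-marker cells at 10 cells per mouse. With the replicate number as a block they were 164 and 221, and 244 and 247 at 10 cells per mouse, although the numbers do not pair the mice. The gate at 1 Cd209a UMI held 38, 37, 27 and 21 cells of the treated mice in order, against 32, 28, 19 and 14 in the main gate. All treated mice therefore entered its gene test, as they did at 10 cells per mouse but not in the first test. The part of the gate itself in its larger counts was not tested apart from that of the added mice. The alternatives without plasmacytoid-marker cells, and the block at 10 cells, were chosen after seeing the data. Leaving out 1 mouse gave 47 to 160 higher and 34 to 217 lower genes. The cDC1 count of 32 became 92 at 10 cells per mouse, 81 there without plasmacytoid-marker cells, and 23 to 54 without 1 mouse. The cDC2 share differed by -0.91 percentage points, by -1.50 to -0.213 without 1 mouse, by -0.46 without plasmacytoid-marker cells, by -0.23 with cells thinned before the gate, and among gated dendritic cells by -14.7, or -12.5 without plasmacytoid-marker cells. The median depth difference of 230.1 UMIs turned to -42.1 at 5% mitochondrial UMIs, -455 at 1 Cd209a UMI and -174 without plasmacytoid-marker cells, and ran from -297 to 872 without 1 mouse. Cd209d turned to 0.23 without plasmacytoid-marker cells and 0.22 without them at 10 cells per mouse. Ccr7 turned to -0.19 with HTODemux and ran from -0.036 to 1.74 without 1 mouse. Irf4 turned to 0.17 with HTODemux, 0.27 at 3 Cd209a UMIs, 0.0057 with DESeq2 size factors and 0.021 without plasmacytoid-marker cells, and ran from -0.46 to 0.35 without 1 mouse. These causes were not tested. Of 52 called named genes, 22 kept their call under every alternative that gave a value, and 25 lost it without 1 mouse.

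HTODemux, or leaving out treated mouse 1 or 2, leaves 1 treated sample in the gene test, assumed to vary like the others. A minimum of 40 cells per mouse was not fitted, nor was the migratory test without 1 mouse or the monocyte comparison. With 14 to 50 members per mouse, low genes such as Il10 and Sik2 were not testable.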

Other observations

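Cyp51, Fdps and Idi1, genes of sterol synthesis chosen with Hmgcs1 after their values were seen, rose in treated cDC2. Cyp51, the sterol demethylase, went from 19.9 ± 2.48 CPM in vehicle mice to 59.2 ± 17.1 in treated mice (SD, n = 4 each), a log2 change of 1.84 ± 0.30 (SE; adjusted p = 0.00015) in edgeR's test. Fdps and Idi1, which make isoprenoid precursors, changed by 1.65 ± 0.35 (SE; adjusted p = 0.0042) and 1.6 ± 0.37 (SE; adjusted p = 0.0087). Hmgcs1, which acts early in the pathway, was at 0.69 ± 0.38 (SE; adjusted p = 0.36), not past the threshold. Hmgcs1 passed in the 8-mouse test (1.25 ± 0.34, adjusted p = 0.013).

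Tfrc, Mt1 and Mt2, also chosen after their values were seen, had lower levels. Tfrc, the transferrin receptor, went from 31.2 ± 3.28 CPM in vehicle mice to 7.13 ± 2.07 in treated mice (log2 change -2.41 ± 0.53, adjusted p = 0.0052). The metallothioneins Mt1 and Mt2 were at -1.34 ± 0.25 (SE; adjusted p = 0.014) and -1.59 ± 0.29 (SE; adjusted p = 0.00063), with overlapping arms for Mt1. The calcium-binding genes S100a6 and S100a11 were at 0.65 ± 0.14 (SE; adjusted p = 0.0049) and 0.59 ± 0.14 (SE; adjusted p = 0.0087).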
